A study of Mus musculus with 4 samples.

Results

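miR-191 and miR-425 are microRNAs cut from 2 neighbouring hairpins on mouse chromosome 9. Their 4 arms, mmu-miR-191, mmu-miR-425 and the star arms miR-191* and miR-425*, were chosen by name from reads that matched 1 miRNA, out of 630 arms with reads. The data are small RNA libraries from NIH-3T3, an established mouse embryonic fibroblast line grown to confluency. The thapsigargin group held 2 libraries from cells given 500 nM thapsigargin for 24 h, and the control group held 2 libraries from cells labelled untreated, with no vehicle named. Thapsigargin blocks the calcium pump of the endoplasmic reticulum and so empties that calcium store and causes endoplasmic reticulum stress. The labels do not say whether replicates were separate cultures, so a p-value speaks only for the scatter of these libraries, which could be technical. The arms were put forward with their counts in view, so their counts and fold changes are a description and support no statement about which arms respond.

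A microRNA hairpin is cut from a longer transcript by Drosha and then opened by Dicer, which leaves a duplex of a 5′ and a 3′ arm. One strand, the guide, is kept by an Argonaute protein and pairs with messenger RNAs mainly through its seed, and the other strand is usually lost. Hairpins in 1 transcript are made together, but their mature products can still differ in processing, loading and turnover. miR-191 is found in most tissues and is often used as a reference in quantitative PCR, and both miR-191 and miR-425 are studied in human cancers. In the human genome the pair lies inside the DALRD3 gene. Names without an asterisk stand here for the 5′ guide arm and names with one for the 3′ star arm.

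The mature sequences show why the 4 arms count as 4 seed families: their seeds, bases 2 to 8 in capitals, are all different. The sequences are those of RefSeq for GRCm38.p6, plus strand, and all 4 arms were matched by name.
miR-191, chr9:108568325-108568347: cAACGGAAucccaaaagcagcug
miR-191*, chr9:108568367-108568388: gCUGCACUuggauuucguuccc
miR-425, chr9:108568789-108568811: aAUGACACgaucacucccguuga
miR-425*, chr9:108568830-108568850: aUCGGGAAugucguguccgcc

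The hairpins place both arms of each miRNA on 1 stem, with the arms in capitals and 384 bases between the 2 hairpins.
Mir191, chr9:108568319-108568392, plus strand: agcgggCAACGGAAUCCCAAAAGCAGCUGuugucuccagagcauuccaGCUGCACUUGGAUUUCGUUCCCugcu
Mir425, chr9:108568777-108568861, plus strand: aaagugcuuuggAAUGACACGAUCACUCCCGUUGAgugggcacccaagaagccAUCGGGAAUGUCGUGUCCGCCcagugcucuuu
In the annotation of that build, both hairpins lie within the single exon of the long noncoding transcript 4833445I07Rik-201 (chr9:108567533-108569174, plus strand). In the shorter transcript 4833445I07Rik-202, Mir191 lies in the intron between its exons, and Mir425 begins just after the transcript ends at 108568774. Dalrd3, the mouse counterpart of the human host gene, begins 1024 bases after Mir425. An annotated antisense miRNA gene, Gm24083, covers Mir191 on the minus strand (chr9:108568295-108568414).

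The libraries held 5570971 and 2685965 reads assigned to 1 arm with thapsigargin and 3857002 and 3633414 in control cells. A single miRNA, miR-10b, took between 35.7% and 56.6% of them. Levels were scaled between libraries with TMM, which assumes that most arms are alike, and are given as CPM, counts per 1000000 scaled reads. Of 10 fibroblast markers, 9 had reads and together made 24.6% and 19.5% of arm reads with thapsigargin and 24.0% and 13.5% in control cells. The tenth, miR-199a-3p, was at 0, its reads being listed as ambiguous. Markers of embryonic stem cells, epithelium, muscle, liver and blood had at most 16 reads in any library per list. No read of the 4 arms was ambiguous. The reads of control replicate 1 stand apart from the other 3 libraries in where they start, as described with the read forms.

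The cluster's output came almost wholly from the miR-191 guide. miR-191 had 20741 and 15918 reads with thapsigargin, and 25879 and 69420 reads in control cells. It ranked 24 and 15 among arms by reads with thapsigargin and 18 and 6 in control cells. miR-191 made 0.372% and 0.593% of arm reads with thapsigargin and 0.671% and 1.91% in control cells, so control replicate 2 stands above the other 3 libraries.

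On the scaled level, miR-191 had 3349 and 8319 CPM with thapsigargin, and 4782 and 21231 CPM in control cells. The groups overlap: thapsigargin replicate 2 lies above control replicate 1, and within each group replicate 2 is the higher one. The level averaged 5834 ± 3514 CPM with thapsigargin and 13006 ± 11631 CPM in control cells (SD, n = 2 each). Replicate 2 exceeded replicate 1 by 2.48-fold with thapsigargin and by 4.44-fold in control cells on this scale, and by 1.59-fold and 2.85-fold when levels were set by total arm reads. The group difference was -1.16 ± 0.77 (log2, SE), with a Benjamini-Hochberg adjusted p of 0.963 (edgeR, quasi-likelihood fit). Without control replicate 2 the log2 difference was 0.24 with TMM, so its direction on that scale rests on that library. By total arm reads, both thapsigargin libraries (3723 and 5926 CPM) also lay below control replicate 1 (6710 CPM). How often other arms separate so on that scale was not counted. In bulk RNA, a change in each cell and a change in the number of cells carrying the miRNA cannot be told apart.

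miR-425, whose seed is unrelated to that of miR-191, was a minor product. It had 367 and 83 reads with thapsigargin, and 417 and 183 reads in control cells. On the scaled level these were 59.3 and 43.4 CPM with thapsigargin, against 77.1 and 56.0 CPM in control cells, and the groups overlap. Unlike miR-191, miR-425 was lower in replicate 2 than in replicate 1 in both groups with both scalings. Its libraries differed by 1.37-fold with thapsigargin and by 1.38-fold in control cells with TMM, but by 2.13-fold and 2.15-fold by total arm reads, so how its spread compares with that of miR-191 depends on the scaling. The means were 51.3 ± 11.2 CPM with thapsigargin and 66.5 ± 14.9 CPM in control cells (SD, n = 2 each), a log2 difference of -0.37 ± 0.51 (SE; adjusted p = 0.987, edgeR).

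**Figure D1:**
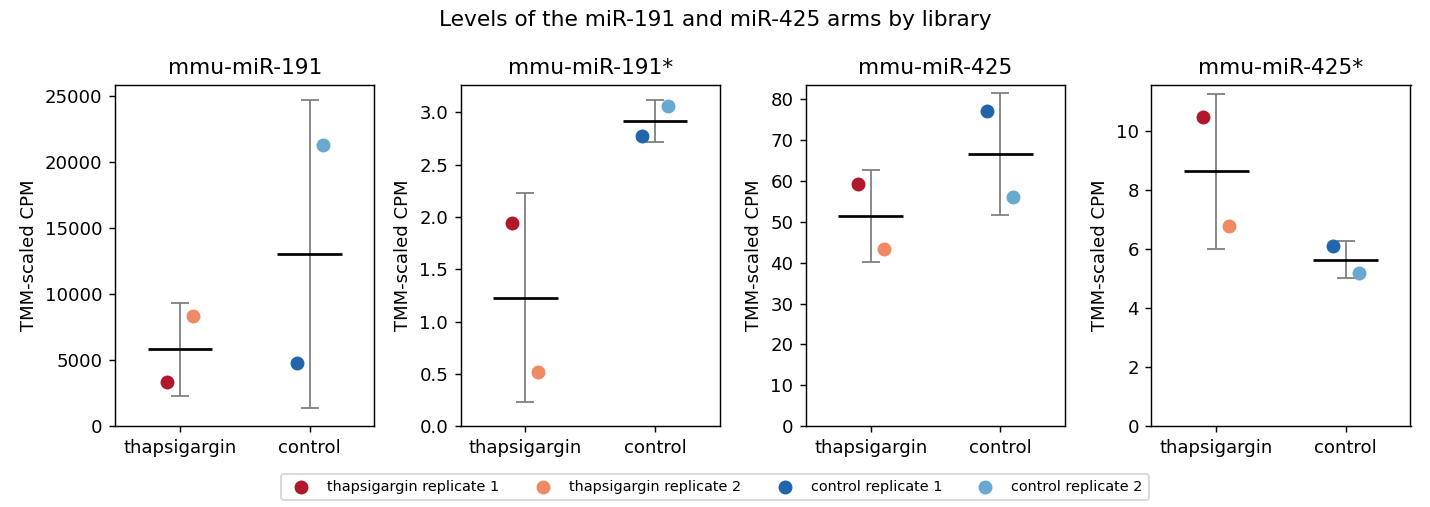
Level of each arm in CPM (TMM scaling, linear axes from 0) with thapsigargin on the left and control on the right of each panel. Points are libraries, the black line is the mean of 2 and the grey bar is 1 SD. Control replicate 2 stands at 21231 CPM for miR-191, while miR-425 stays between 43.4 and 77.1 CPM in the 4 libraries.

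The star strands were rare. miR-191* had 12 and 1 reads with thapsigargin, and 15 and 10 reads in control cells, or 1.94 and 0.523 CPM against 2.77 and 3.06 CPM. Both thapsigargin libraries lie below both control libraries, on a count of 1 read in thapsigargin replicate 2. miR-425* had 65 and 13 reads with thapsigargin, and 33 and 17 reads in control cells, or 10.5 and 6.79 CPM against 6.10 and 5.20 CPM. Both thapsigargin libraries lie above both control libraries here. By total arm reads in place of TMM the miR-425* groups overlap, and the miR-191 groups do not, with thapsigargin lower. The share of all arms whose groups do not overlap by total arm reads was not counted. The choice of total arm reads moved the median log2 difference over all arms to -0.36, against -0.01 with TMM.

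Groups that do not overlap are common in these libraries. With TMM, 17.4% of 310 tested arms had both thapsigargin libraries above both control libraries, as miR-425* did. Both lay below in 16.1%, as for miR-191*. The fitted log2 difference was -1.02 ± 0.72 for miR-191* and 0.63 ± 0.62 for miR-425* (SE; adjusted p = 0.987 for each, edgeR). None of the 4 arms passed the threshold of 0.05, and neither did any other tested arm (0 of 310, 0%). The smallest adjusted p over all arms was 0.260, 12 arms had an unadjusted p under 0.05, and 0 were called by DESeq2 (15 at that unadjusted p) or by limma-voom (12). In the authors' deposited table miR-191 had a log2 difference of -1.23 (p = 0.07, adjusted p = 1) and miR-425 one of -0.44 (p = 0.517, adjusted p = 1). The authors' table lists neither star arm.

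The higher miR-425* level rests in part on which table holds its reads. The deposited tables of predicted star reads hold further reads of the same arm that begin 1 or 2 bases before the RefSeq start. There were 2 and 1 of them with thapsigargin and 26 and 3 in control cells, so 26 of 32 came from control replicate 1. With these reads added, miR-425* had 10.8 and 7.32 CPM with thapsigargin and 10.9 and 6.12 CPM in control cells. The groups then overlap and the log2 difference was 0.12 ± 0.62 (SE; adjusted p = 0.989, edgeR). No such reads were held for miR-191*. The commonest forms in control replicate 1, with the bases before the RefSeq start in capitals, had 11, 6 and 4 reads.
miR-425*, 11 reads: Catcgggaatgtcgtgtccgcc
miR-425*, 6 reads: Catcgggaatgtcgtgtccgc
miR-425*, 4 reads: CCatcgggaatgtcgtgtccgt

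The strand balance differed between the 2 hairpins far more than between the groups. Star reads made 0.0578% and 0.00628% of Mir191 hairpin reads with thapsigargin and 0.0579% and 0.0144% in control cells. They made 15% (exact binomial 95% interval 11.8 to 18.8) and 13.5% (7.41 to 22) of Mir425 hairpin reads with thapsigargin. In control cells they made 7.33% (5.10 to 10.1) and 8.50% (5.03 to 13.3). Intervals cover counting error only, since the reads carry no molecular identifiers. The Mir425 hairpin thus kept a visible star strand in every library, while that of Mir191 never exceeded 0.0579%.

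Both thapsigargin libraries had a higher miR-425 star share than both control libraries, 14.3% ± 1.06 with thapsigargin and 7.92% ± 0.825 in control cells (SD, n = 2 each). The difference was 6.38 percentage points (exact two-sided permutation test, p = 0.333, the smallest p that 2 libraries against 2 allow). How often the star share of other hairpins separates the groups was not counted. With the predicted star reads added, the shares were 15.4% and 14.4% with thapsigargin and 12.4% and 9.85% in control cells. The groups still do not overlap, but the difference shrank to 3.81 points. When control replicate 1 reads were shortened by their first base, its star arm had 54 reads and a share of 11.5%, and the difference was 4.27 points. In edgeR's test of the star arm against its hairpin, the log2 change of miR-425* was 0.62, with an adjusted p of 1. The same test was run on both arms of 78 hairpins, 156 arms in all. Of these arms 0 were called, and 5 had an unadjusted p under 0.05. For Mir191 the exact permutation p was 0.667.

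The rarer mature arm had the commoner star arm. There were 5.42 miR-425* reads for each miR-191* read (95% interval 2.90 to 11) in thapsigargin replicate 1 and 13.0 (1.95 to 552) in thapsigargin replicate 2. The ratio was 2.20 (1.16 to 4.36) in control replicate 1 and 1.70 (0.735 to 4.15) in control replicate 2, from the star tables alone. The order from high to low was miR-191, miR-425, miR-425*, miR-191* in all 4 libraries, but in control replicate 2 the interval of the last ratio includes 1.

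The ratio of the 2 guides was not fixed. There were 56.5 miR-191 reads per miR-425 read (95% interval 51.0 to 62.8) in thapsigargin replicate 1 and 192 (155 to 241) in thapsigargin replicate 2. The ratio was 62.1 (56.3 to 68.5) in control replicate 1 and 379 (328 to 441) in control replicate 2. Both replicate 1 libraries lie near each other, and both replicate 2 libraries lie above them by more than the counting error of reads. The ratio in replicate 2 exceeded that in replicate 1 by 1.76 on the log2 scale with thapsigargin and by 2.61 in control cells, more than the group difference. The log2 ratio averaged 6.70 ± 1.25 with thapsigargin and 7.26 ± 1.85 in control cells (SD, n = 2 each), a difference of -0.56 (exact permutation p = 0.667). Without thapsigargin replicate 1 the difference was 0.32, and without control replicate 2 it was 0.75. Adapter ligation can favour one miRNA over another, so the size of the ratio is a ratio of reads, not of molecules.

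Most other neighbouring miRNAs held a steadier ratio. Of 13 pairs examined, 9 were kept: 8 had at least 100 reads of each miRNA in every library, and miR-191 with miR-425 was kept although miR-425 had 83 in thapsigargin replicate 2. The log2 ratio of miR-191 to miR-425 had an SD of 1.33 over the 4 libraries. That was second to miR-182 with miR-183 (1.77), miRNAs known from sensory organs, and just above miR-99b with miR-125a-5p (1.17). The other 6 pairs had SDs between 0.49 for miR-143 with miR-145, smooth muscle and fibroblast miRNAs, and 0.88 for miR-30e with miR-30c. Mature miR-30c can come from more than 1 locus, so that ratio is not one of partners in a single transcript alone. The log2 difference of replicate 2 from replicate 1 had the same sign in both groups for 8 of the 9 pairs, all but miR-143 with miR-145. It was 1.76 with thapsigargin and 2.61 in control cells for miR-191 with miR-425, against 1.88 with thapsigargin and 0.45 in control cells for miR-30e with miR-30c.

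**Figure D2:**
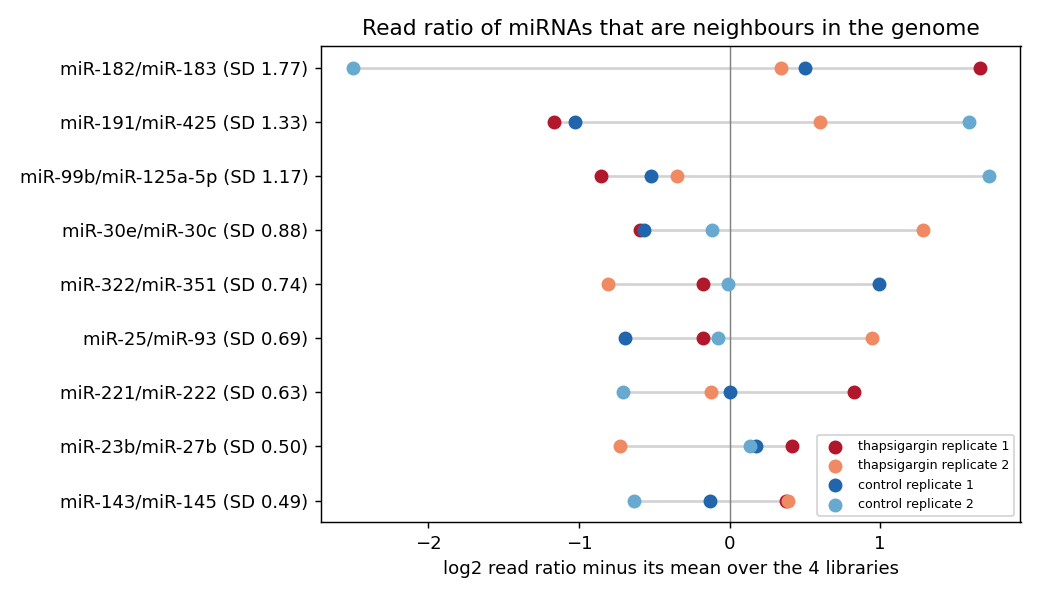
Log2 read ratio of each pair of neighbouring miRNAs in each library, minus the mean of that pair over the 4 libraries, with pairs ordered by SD. For miR-191 with miR-425 both replicate 1 libraries sit below the mean and both replicate 2 libraries above it (SD 1.33).

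Likeness of levels across libraries was used to find the arms nearest to each guide. Between the guides it is the spread of their log2 ratio on another scale, so it adds no separate evidence. Likeness was measured as the root mean square difference of log2 CPM, each centred on its own mean over the 4 libraries, among 169 arms with a mean of at least 100 reads. Nearest to miR-191 were miR-183 (0.20), miR-574-5p (0.35), miR-21* (0.36), miR-501-3p (0.37) and miR-125b-1-3p (0.59). On the centred scale miR-191 was at -1.12 and 0.19 with thapsigargin and at -0.61 and 1.54 in control cells, and miR-183 was at -1.11 and 0.12 with thapsigargin and -0.86 and 1.85 in control cells. Both thus peak in control replicate 2. Nearest to miR-425 were miR-26a (0.07), let-7b (0.12), miR-148b* (0.14), miR-34a (0.16) and miR-152 (0.17). miR-425 ranked 95 by likeness to miR-191, at 1.15, and miR-191 ranked 160 by likeness to miR-425. These are descriptions over 4 libraries, with no test.

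As miR-191 often serves to normalise quantitative PCR, its spread was set beside 16 other miRNAs used or proposed for that purpose, miR-425 among them. With TMM, miR-191 had the widest spread of the 17, with an SD of 1.16 in log2 CPM over the 4 libraries, against a list median of 0.36 and a median of 0.52 over all 310 tested arms. By total arm reads its SD was 1, and the values of miR-30b (1.06) and miR-30c (1.01) were then above it. miR-425 stood at rank 11 with TMM, with an SD of 0.34, but at rank 4 by total arm reads, with 0.75. The steadiest was miR-26b with TMM (0.06, against 0.47 by total arm reads) and miR-24 by total arm reads (0.20, against 0.35 with TMM). miR-16, a common reference, had 0.27 on both scales. Of the 17, 8 had a log2 difference above 0 and 9 below, with a median of -0.07 against -0.01 over all arms, and 0 were called.

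**Figure D3:**
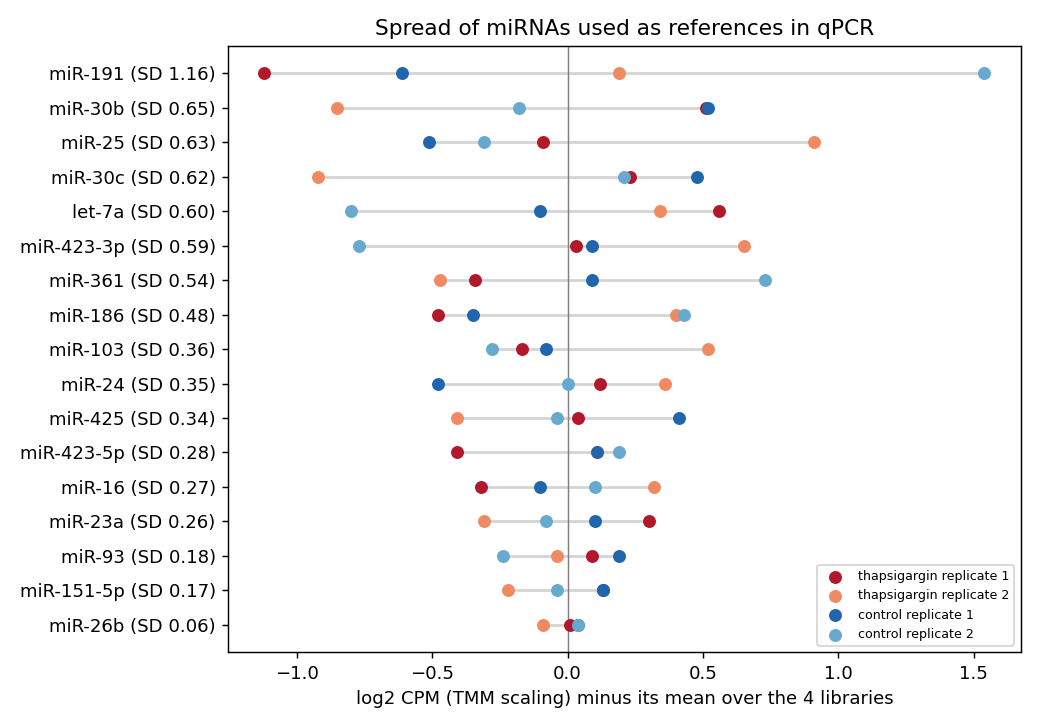
Log2 CPM (TMM scaling) of 17 miRNAs used as references in quantitative PCR, each centred on its mean over the 4 libraries and ordered by SD. miR-191 spans the widest range on this scale (SD 1.16; rank 3 of 17 by total arm reads). miR-425 (SD 0.34) lies in the lower part of the list here, and at rank 4 by total arm reads (SD 0.75).

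The reads themselves show a difference in 5′ start that follows 1 library. Positions are counted from 1 at the first base of the RefSeq mature miRNA. No read of miR-191 or miR-425 began at position 1 with thapsigargin, and none did in control replicate 2. In control replicate 1, 96.9% of miR-191 reads and 98.3% of miR-425 reads began there. The 0 reads in the other 3 libraries allow a share of at most 0.0232% for miR-191 and 4.35% for miR-425 (upper exact 95% limits, both in thapsigargin replicate 2). In those libraries miR-191 began at position 2 in 96.5% and 97.4% of reads with thapsigargin and 97.7% in control replicate 2, and miR-425 did so in 99.5% and 100% with thapsigargin and 99.5% in control replicate 2. The group difference in reads that begin at position 1, -48.4 percentage points for miR-191 and -49.2 for miR-425, therefore came wholly from control replicate 1 (exact permutation p = 1 for each).

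The commonest miR-191 reads, with RefSeq bases 2 to 8 in capitals, differ by that first base and share their 3′ end.
miR-191, thapsigargin replicates 1 and 2 (18891 and 15075 reads) and control replicate 2 (65890 reads): AACGGAAtcccaaaagcagctg
miR-191, control replicate 1, 24002 reads: cAACGGAAtcccaaaagcagctg
The next shares are over mature, star, predicted star and hairpin reads, not limited to those matching 1 miRNA. Of control replicate 1 reads, 83.4% were also found, as deposited, in any of the other 3 libraries. For those libraries the share found in the other 2 of them was 99.7% and 99.9% with thapsigargin and 99.8% in control replicate 2. Shortened by 1 base, 99.8% of the remaining control replicate 1 reads were found, against 96.6% and 98.4% with thapsigargin and 98.6% in control replicate 2. A read that lacks position 1 has its own bases 2 to 8 moved by 1 base from the RefSeq seed. The source of the shift was not tested.

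The star arms moved in step. miR-191* most often began at position 3 with thapsigargin (10 of 12 reads and the single read) and in control replicate 2 (5 of 10), but at position 2 in control replicate 1 (13 of 15). miR-425* had a split start. Of its reads in the star tables, 46.2% and 53.8% began at position 1 with thapsigargin, against 84.8% and 47.1% in control cells, and most others began at position 2. In control replicate 1 the 21 predicted star reads that begin 1 base before position 1 stand beside 28 that begin at position 1.

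**Figure D4:**
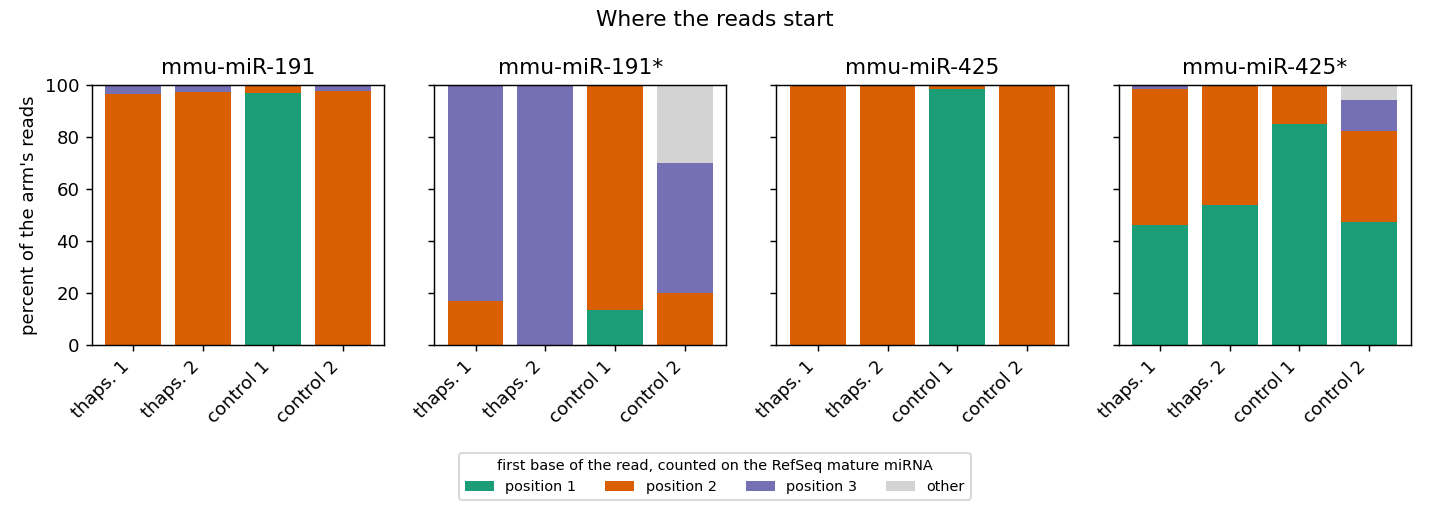
Share of each arm's reads (percent, stacked) by the position of their first base on the RefSeq mature miRNA, in the 4 libraries, from the mature and star tables. Control replicate 1 holds reads that begin 1 base earlier, at position 1 for 96.9% of miR-191 reads and 98.3% of miR-425 reads.

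Relative to each library's commonest start, miR-191 had a minor form that began 1 base later. It made 3.48% and 2.55% of reads with thapsigargin and 3.02% and 2.30% in control cells, so the groups overlap. Of these reads, 14.7% and 8.62% ended at position 24 with thapsigargin, and 13.2% and 4.64% in control cells. Among reads with the commonest start, at most 0.0387% in any library ended there. In each library the later start was thus seen together with the later end far more often, with 35 to 106 reads behind each share.

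The 3′ ends set the guides apart. miR-191 ended at position 23 in 95.7% and 98.5% of reads with thapsigargin and in 97.0% and 98.8% in control cells. A single form made 91.1% and 94.7% of its reads with thapsigargin and 92.7% and 94.9% in control cells. By that share it ranked 5 and 4 with thapsigargin and 5 and 4 in control cells among the 139 arms that had 80 or more reads everywhere, whose median was between 52.6% and 57.4%.

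miR-425 had several ends. The commonest end was position 22, with 48.0% and 51.8% of reads with thapsigargin and 43.4% and 43.2% in control cells. The commonest single form, which ended there, made 46.6% and 50.6% with thapsigargin and 42.7% and 41.5% in control cells. Position 19, the end of a short form, held 25.6% and 30.1% of reads with thapsigargin and 33.8% and 35.5% in control cells. Both thapsigargin libraries lie above both control libraries at position 22 and below them at position 19. However, the exact 95% intervals of thapsigargin replicate 2 (40.6 to 62.9 and 20.5 to 41.2) include the control values. That of thapsigargin replicate 1 includes them at position 22 (42.7 to 53.2). At position 19 its interval (21.2 to 30.4) lies below the control values but overlaps their intervals (29.3 to 38.6 and 28.6 to 42.9). The differences in end position were noticed in the data and were not tested, and how many other arms separate so was not counted. Both are shares of the same reads, so they are not independent. Hardly any reads ended at position 20 or 21.

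Examples of miR-425 forms are shown with the bases after position 19 in capitals. Control replicate 2 shared its commonest forms with the thapsigargin libraries. It had 76 reads of the first form below and 65 of the 18 nt form. A form that ended at position 24 is not shown. It had 21 reads (11.5%) in control replicate 2, and 24 (6.54%) and 8 (9.64%) in thapsigargin replicates 1 and 2.
Thapsigargin replicates 1 and 2, 171 and 42 reads: atgacacgatcactcccgTTG
Thapsigargin replicates 1 and 2, 93 and 25 reads: atgacacgatcactcccg
Thapsigargin replicate 1, 28 reads: atgacacgatcactcccgTTGA
Thapsigargin replicate 1, 27 reads: atgacacgatcactcccgTTGT
Control replicate 1, 178 reads: aatgacacgatcactcccgTTG
Control replicate 1, 137 reads: aatgacacgatcactcccg
The short form in the thapsigargin libraries and in control replicate 2 is 18 nt long, the shortest read in the tables, so any shorter form with that start would not be seen. In control replicate 1, where reads are 1 base longer, no miR-425 read ended at position 18.

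Position 23 of miR-425 was read either as the A of the hairpin or as a T that the hairpin does not encode. The T was found in 27 of 56 reads that ended there and 4 of 7 with thapsigargin, and in 21 of 65 and 7 of 15 in control cells. Reads that departed from the hairpin at their last base alone made 8.17% and 4.82% of miR-425 with thapsigargin and 5.52% and 3.83% in control cells. For miR-425* they made 29.2% and 46.2% with thapsigargin and 39.4% and 52.9% in control cells, and the form below, in which the last capital is not encoded, is one of them.
miR-425*, thapsigargin replicates 1 and 2 (7 and 4 reads), control replicates 1 and 2 (9 and 5 reads): atcgggaatgtcgtgtccgCCT
Reads that matched the hairpin throughout made 70.8% and 53.8% of miR-425* with thapsigargin and 45.5% and 47.1% in control cells, on 13 to 65 reads. The same share for miR-191 was between 98.1% and 98.3% in the 4 libraries.

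**Figure D5:**
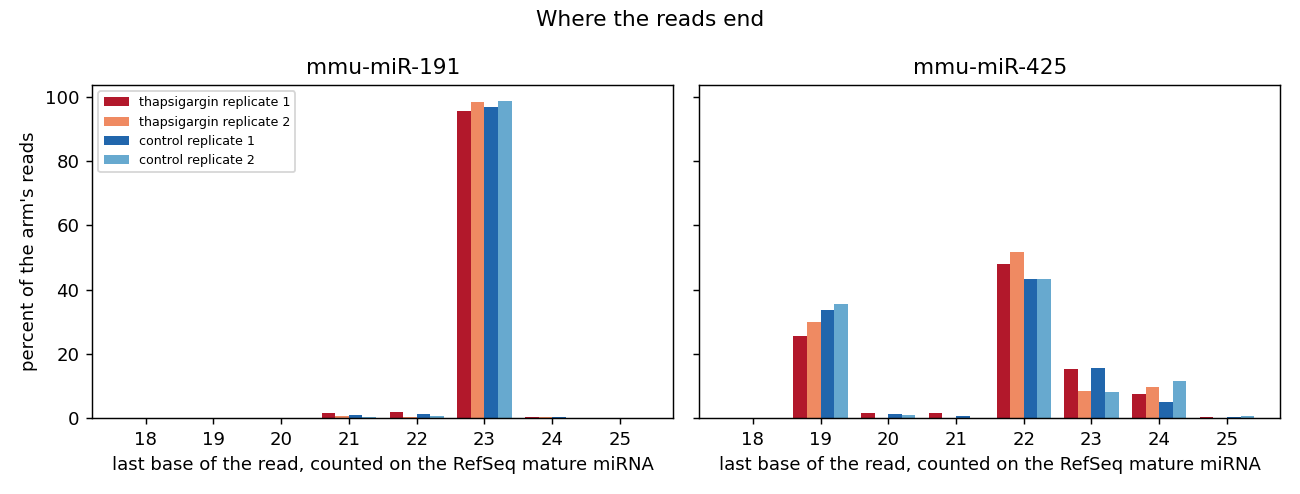
Share of reads (percent) of miR-191 and miR-425 by the position of their last base on the RefSeq mature miRNA, with 1 bar per library, thapsigargin libraries first. miR-191 ends at position 23 in at least 95.7% of reads, while miR-425 is spread mainly over positions 19, 22, 23 and 24.

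Read length followed the starts. miR-191 reads averaged 21.91 and 21.96 nt with thapsigargin and 22.93 and 21.96 nt in control cells, and miR-425 reads 20.49 and 20.37 nt with thapsigargin and 21.20 and 20.23 nt in control cells. The exact permutation p was 0.333 for miR-191 and 1 for miR-425. Without control replicate 1 the difference was -0.0267 nt for miR-191 and 0.201 nt for miR-425.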

How the data were processed

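Small RNA libraries were made with a kit that joins adapters to both RNA ends, per the labels' protocols. Per the submitters' processing notes, CASAVA 1.8.1, cutadapt, Bowtie and DESeq 1.4.1 were used, with mm9. Coordinates here come from RefSeq and the gene annotation of GRCm38, not from the files. The authors deposited counts, in whole numbers, per distinct read sequence and per miRNA, and percent values of reads, per the file headers. The authors' deposited comparison table gives log2 fold changes and p-values. Its column names are those of an early edgeR test.

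Counts were summed from the read tables over 630 mature, star and predicted star arms, from reads matching 1 miRNA. The mature summary of thapsigargin replicate 2 did not match its read table and was not used. Files of ambiguous predicted star reads held no rows. The quasi-likelihood test of edgeR 4.0.16 (R 4.3.3; TMM, filterByExpr minimum count 10, robust, two-sided) kept 310 arms, at a biological coefficient of variation of 0.447. Adjustment was by Benjamini-Hochberg at 0.05. The script was tested on simulated data. DESeq2 1.42.0, limma 3.58.1 and diffSpliceDGE were alternatives or added tests. Permutation tests and exact 95% intervals came from scipy 1.17.1. Reads were placed on the RefSeq hairpins.

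Named were the 4 arms, the 5 arms nearest to each guide, partner pairs with 100 reads per library, reference miRNAs, and read forms that were the commonest or at least 5%, shown by example. Members and lists were chosen with earlier results of these data known.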

Additional observations from a re-analysis of the deposited data

Results flagged for a closer look

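A summary deposited for thapsigargin replicate 2 did not match that sample's read table and entered no comparison. It listed miR-191 with 14096 reads, 3% of its reads, against 0.615% and 1.8% in the control summaries. By percent it stands out as a signal above both controls in data outside the main measurement, while the read table of the same sample held 15918 reads. The control summaries listed 25879 and 69420 miR-191 reads at their lower percents. The unmatched summary therefore rests on far fewer reads in all, and its percents are set beside unlike totals. The same summary listed miR-425 with 137 reads, 0.0291% of its reads, against 0.00991% and 0.00476% in the control summaries, and the read table held 83 reads. The summary of thapsigargin replicate 1, which matched its read table for both guides, had 0.344% for miR-191, below both controls, and 0.00609% for miR-425, between them. What the unmatched summary was made from was not tested.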

How the results depend on the processing

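Of 116 recomputed values of 12 results, 103 kept their direction and their side of the threshold, 7 changed sign and 6 moved. Except in edgeR's test of star arms, the guide ratio, star shares, 5′ starts and read lengths could not cross the threshold. Their exact permutation p cannot fall below 0.333, or 0.5 with the replicate block, and had no value with 1 library left out. Those values speak for direction only. Under every scaling, tool and filter tried, miR-191, miR-425 and miR-191* stayed lower and miR-425* stayed higher with thapsigargin, none called. Their log2 differences with 1 library left out ranged from -1.93 to 0.24 for miR-191 (reversed without control replicate 2), -0.67 to -0.11 for miR-425, -2.44 to -0.56 for miR-191* and 0.21 to 0.90 for miR-425*. The count of arms called was 3 without a filter and ranged from 0 to 3 with 1 library left out. With the replicate block it was 0, and with the block and the shortened control replicate 1 it was 6, none of them an arm of the cluster. Replicate numbers did not pair the samples by the labels, and replicate 2 minus 1 correlated at 0.57 over 310 arms, with 2 pairs only. With the replicate block the log2 difference was -0.93 for miR-191, -0.37 for miR-425, -1 for miR-191* and 0.62 for miR-425*, with adjusted p between 0.509 and 0.642. The log2 ratio of the guides ranged from -1.87 to 0.75 with 1 library left out, and was -0.56 with the block (p = 0.5, exact). The star share difference of Mir191 ranged from -0.0299 to 0.0217 points with 1 library left out, and as a log2 ratio in edgeR it was 0.09. That of Mir425 ranged from 5.62 to 7.13 points with 1 library left out. It was smaller with control replicate 1 shortened (4.27) and with predicted star reads added (3.81). The difference in reads that begin at position 1 ranged from -96.9 to 0 points for miR-191 and -98.3 to 0 for miR-425, and the length of miR-425 from -0.766 to 0.201 nt. The predicted star reads were added as an alternative chosen after seeing the data. Beyond the library left out, the cause of these changes was not tested. Depth limits the star arms, with 1 miR-191* read in thapsigargin replicate 2.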
